A study of Mus musculus with 15 samples.

Results

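Replication-dependent histone genes encode the bulk of the histones on which newly copied DNA is wrapped: the core histones H2A, H2B, H3 and H4 and the linker histone H1. The genes described here are the 66 rows of the deposited expression table, out of 18762, whose gene name begins with Hist1h, Hist2h, Hist3h or Hist4h. They comprise 6 H1, 18 H2A, 18 H2B, 11 H3 and 13 H4 genes. By the RefSeq annotation of the mouse genome build GRCm38.p6, 54 of them lie in the Hist1 cluster on chromosome 13, 9 in the Hist2 cluster on chromosome 3, 2 in the Hist3 cluster on chromosome 11 and 1, Hist4h4, on chromosome 6.

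RNA was sequenced from mouse embryonic stem (ES) cells of strain C57BL/6N that were Mettl5-/- (knockout, KO) or wild type (WT). METTL5 is a methyltransferase that modifies an adenosine of the small subunit's ribosomal RNA. Each of 3 cultures had 3 KO libraries (lines 1 to 3) and 2 WT libraries (line 1, named Ctr in the labels, and line 2, named WT), which makes 15 libraries in 6 groups: embryoid bodies (EBs) after 6 days without LIF on dishes whose coating of poly(2-hydroxyethyl methacrylate) stops attachment, cells after 6 days in N2B27 medium for neural differentiation, and ES cells at day 0. All groups share the strain, with no further allele or agent named. The sources used here do not say whether each line was 1 clone or which part of Mettl5 was deleted. The messenger RNA was purified on oligo(dT) beads, fragmented and copied from random hexamers, per the labels' protocols. Nothing in the labels says that libraries of a group came from separate cultures, so a p-value here rests on the spread from library to library, and that spread may be technical.

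Mettl5 RNA was still detected in KO cells but did not overlap between genotypes in any culture, at 7.21 to 10.65 FPKM in KO against 19.03 and 20.85 FPKM in WT ES cells, 5.22 to 9.07 against 17.7 and 19.79 FPKM in EBs, and 3.29 to 6.41 against 8.37 and 8.65 FPKM in N2B27. FPKM, the unit of all levels here, is a fragment count scaled to the length of the transcript and to the size of the library. Depth was estimated from the steps between low values at 16700000 to 18600000 fragments per library, at which 1 fragment on a transcript of 500 bases is worth 0.108 to 0.120 FPKM. The summed FPKM of 7 ES cell markers was 3387 to 3745 in ES cells and 168 to 272 in N2B27. In EBs it was still 1471 to 1735 in KO and 1254 and 1246 in WT. That of 7 germ layer markers was 61.5 to 152 in EBs and 22.1 to 41.4 in N2B27, against 0.91 to 2.33 in ES cells. That of 6 neural markers was 427 to 597 in N2B27 and 60.6 to 92.0 in EBs, against 120 to 135 in ES cells. Each sum was thus highest in the culture of its label, but none was confined to it.

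Most messenger RNAs end in a poly(A) tail, but those of replication-dependent histone genes normally do not. They end shortly after a conserved stem-loop, which the stem-loop binding protein SLBP holds while the U7 small nuclear RNA complex directs the cut. Their amounts rise as cells copy their DNA and fall when replication stops, and some of the genes also give longer, polyadenylated transcripts, as described for cells that leave the cycle. Oligo(dT) beads bind runs of A, so in these libraries a histone gene's value is the level of what the beads retained and not that of the gene's whole RNA. The table offers no check of that selection among other RNAs: of 13 entries for RNAs without a tail that were looked up, such as Terc, Rmrp and the snoRNA families, none is among its rows.

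The stem-loop was searched in the transcripts that GENCODE M21 annotates on GRCm38, as the 16 letters GGNNNTTNTNANNNCC with all 6 bases of the stem paired. It was found in 45 of the 66 members, 68.2%, against 64 of 18086 genes of the table (members included), 0.354%. The following windows show it in 4 members whose levels are described later, as the transcribed strand from 5′ to 3′, with the 16 letters of the stem-loop in capitals.
Hist3h2ba (H2B), chr11:58949344-58949369, plus strand: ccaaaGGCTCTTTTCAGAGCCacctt
Hist1h1c (H1), chr13:23739507-23739532, plus strand: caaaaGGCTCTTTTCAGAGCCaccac
Hist1h3c (H3), chr13:23745042-23745067, minus strand: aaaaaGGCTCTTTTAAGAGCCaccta
Hist1h4i (H4), chr13:22040961-22040986, minus strand: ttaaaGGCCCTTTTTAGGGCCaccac
The form of Hist3h2ba and Hist1h1c occurred in 25 members and that of Hist1h3c in 6, while the H4 gene Hist1h4i shared its form with 1 other member, Hist2h4. Of the 45 members, 28 had under 200 annotated bases after the stem-loop (median of their mean levels 0.701 FPKM) and 17 had 200 or more (0.381 FPKM). The 21 members without a match had a median of 0.618 FPKM. No match says only that these letters are not in the annotated transcript, and several members are annotated without their 3′ end: the transcript of Hist1h2ai holds 393 bases and ends with the coding sequence.

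The annotated transcripts of Hist1h2ap and Hist1h2ao, which with Hist1h2ai had the highest levels of the members, carry a run of 12 A directly before the stem-loop. Both windows are shown from 5′ to 3′ on the transcribed strand, with the run in capitals and the start of the stem-loop after it.
Hist1h2ap (H2A), chr13:21833036-21833065, minus strand: cccgaaaagAAAAAAAAAAAAggctctttt
Hist1h2ao (H2A), chr13:21810877-21810906, plus strand: cccgaaaagAAAAAAAAAAAAggctctttt
A run of 10 or more A stood in 4 of the 66 members (6.06%), against 17.1% of the 18086 genes, whose transcripts are longer as a rule. Among genes with no coding transcript over 600 bases it stood in 2 of 36 members (5.56%) and in 8 of 297 genes of the table (2.69%). The remaining members with such a run were Hist1h2be, an H2B gene with 11 A and a mean of 1.03 FPKM, and Hist1h2ac, an H2A gene with 15 A and a mean of 0.0507 FPKM. These runs lie beyond the stem-loop in the annotated transcripts of both genes. The annotated transcript of Hist1h2ai holds no run of A longer than 2, but it lacks the 3′ end, which could not be searched. Other members annotated without their 3′ end could likewise show no run there. Whether a run bears on the level of any member was not tested.

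Among the 66 members, 3 H2A genes of the Hist1 cluster held nearly all of the signal. Hist1h2ap (mean of 1135 FPKM over the 15 libraries), Hist1h2ai (758 FPKM) and Hist1h2ao (129 FPKM) together made up 95.0% to 98.2% of the summed FPKM of all members in a library. The next highest was Hist1h2bc at 7.18 FPKM, so that 23 members lay at means of 1 to 10 FPKM and 40 under 1 FPKM. One member, Hist1h4m, was listed at 0 in every library, 20 never reached 1 FPKM and 17 were above 0 throughout. On transcripts as short as these, values under 1 FPKM rest on few fragments at the estimated depth.

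Hist1h2ap had 1048.31, 1202.72 and 1193.8 FPKM in KO ES cells and 1065.05 and 1036.35 FPKM in WT ES cells. It had 1756.4, 1567.15 and 1687.29 FPKM in KO EBs and 1032.14 and 1777.33 FPKM in WT EBs, and 687.47, 962.84 and 519.21 FPKM in KO N2B27 and 859.46 and 625.9 FPKM in WT N2B27. EBs were thus highest and N2B27 lowest, except that WT line 1 had 1032.14 FPKM in EBs against 1065.05 FPKM in ES cells. In bulk RNA, fewer cells that express a histone gene and less of its RNA per cell cannot be told apart. Hist1h2ai was also highest in EBs in each line, and lowest in N2B27 except in KO line 2, with 846.69, 715.4 and 825.66 FPKM in KO and 629.74 and 632.54 FPKM in WT ES cells, 1265.52, 1144.11 and 1098.29 FPKM in KO and 671.78 and 1083.5 FPKM in WT EBs, and 412.72, 746.62 and 328.43 FPKM in KO and 628.35 and 338.36 FPKM in WT N2B27. Its ratio to Hist1h2ap stayed between 0.541 and 0.808 in the 15 libraries, whereas the ratio of Hist1h2ao to Hist1h2ap ran from 0.0514 to 0.265.

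Near-identical copies limit how these levels can be divided between genes. Of the stretches of 50 bases in the annotated transcript, 93.1% in Hist1h2ap, 93.5% in Hist1h2ao and 90.1% in Hist1h2ai also occur in another gene's transcript, and Hist1h2ap and Hist1h2ao are each other's closest copy. The program named in the submitters' processing notes, RSEM, divides fragments that match several genes by estimation, so the value of each of these genes depends on that estimate. Hist1h2bq and Hist1h2br, both H2B genes, share 97.3% of the stretches of Hist1h2bq and had identical values in all 15 libraries. For Hist1h2bc the share was 30.1%, for Hist3h2ba 22.1% and for Hist1h1c 8.54%.

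**Figure D1:**
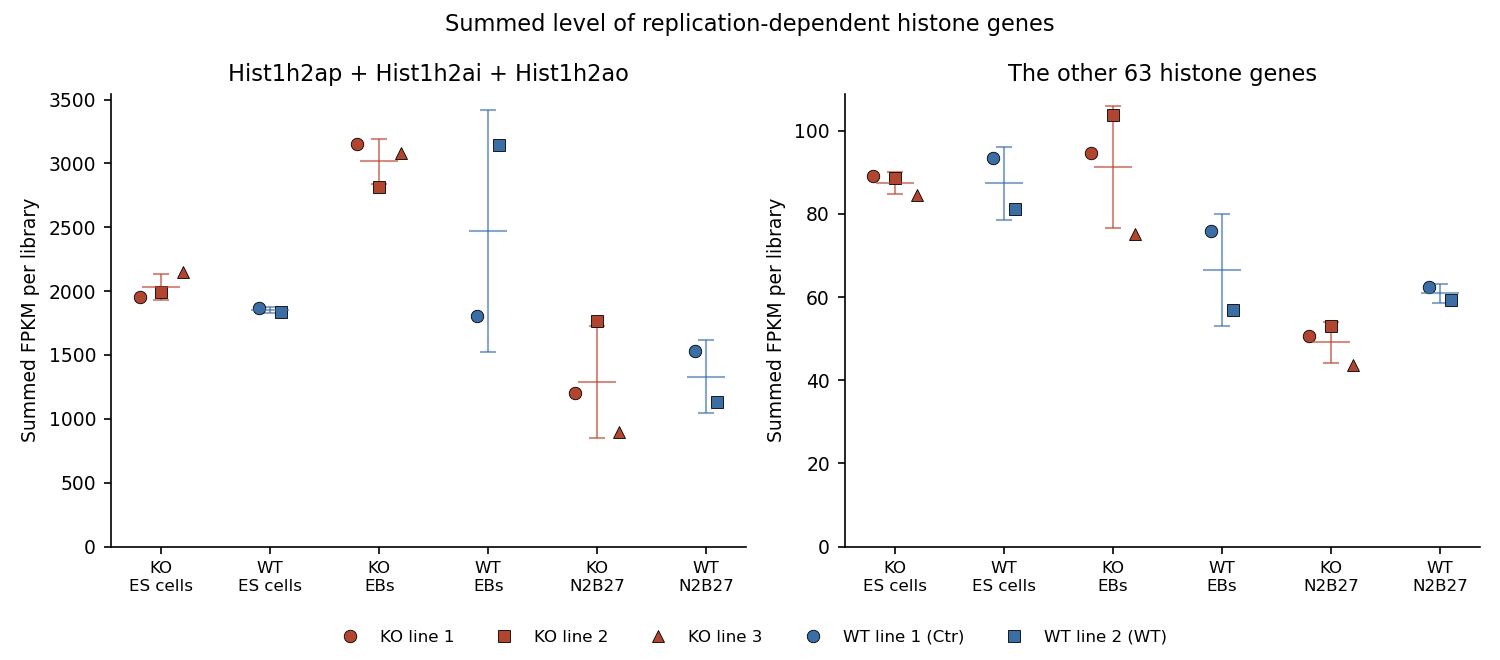
Summed FPKM per library (y axes, from 0) of Hist1h2ap, Hist1h2ai and Hist1h2ao (left) and of the other 63 histone genes (right) in the 6 groups, with the mean and SD of each group as bars. The 3 genes sit at 2815 to 3151 in KO EBs, where the WT lines lie at 1803 and 3142, while the other 63 genes together stay at 43.7 to 104.

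Outside these 3 genes each class was carried by a few members. Hist1h1c gave 71.7% of the H1 signal, Hist1h2bc 31.3% of that of H2B, Hist1h4i 35.8% of that of H4 and Hist1h3b 22.3% of that of H3. Hist1h1c, a linker histone, had 2.85, 3.53 and 2.77 FPKM in KO EBs and 2.43 and 3.02 FPKM in WT EBs, against 3.07 to 5.5 FPKM in KO ES cells and 6.19 and 4.57 FPKM in WT ES cells. The H2A gene Hist3h2a and the H2B gene Hist3h2ba, neighbours in the Hist3 cluster, both peaked in the EBs of KO line 2, at 13.56 and 14.37 FPKM. The genes known for their expression in testis stayed near 0: Hist1h1t reached at most 0.08 FPKM, Hist1h2aa 0.36 FPKM and Hist1h2ba 0.34 FPKM.

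**Figure D2:**
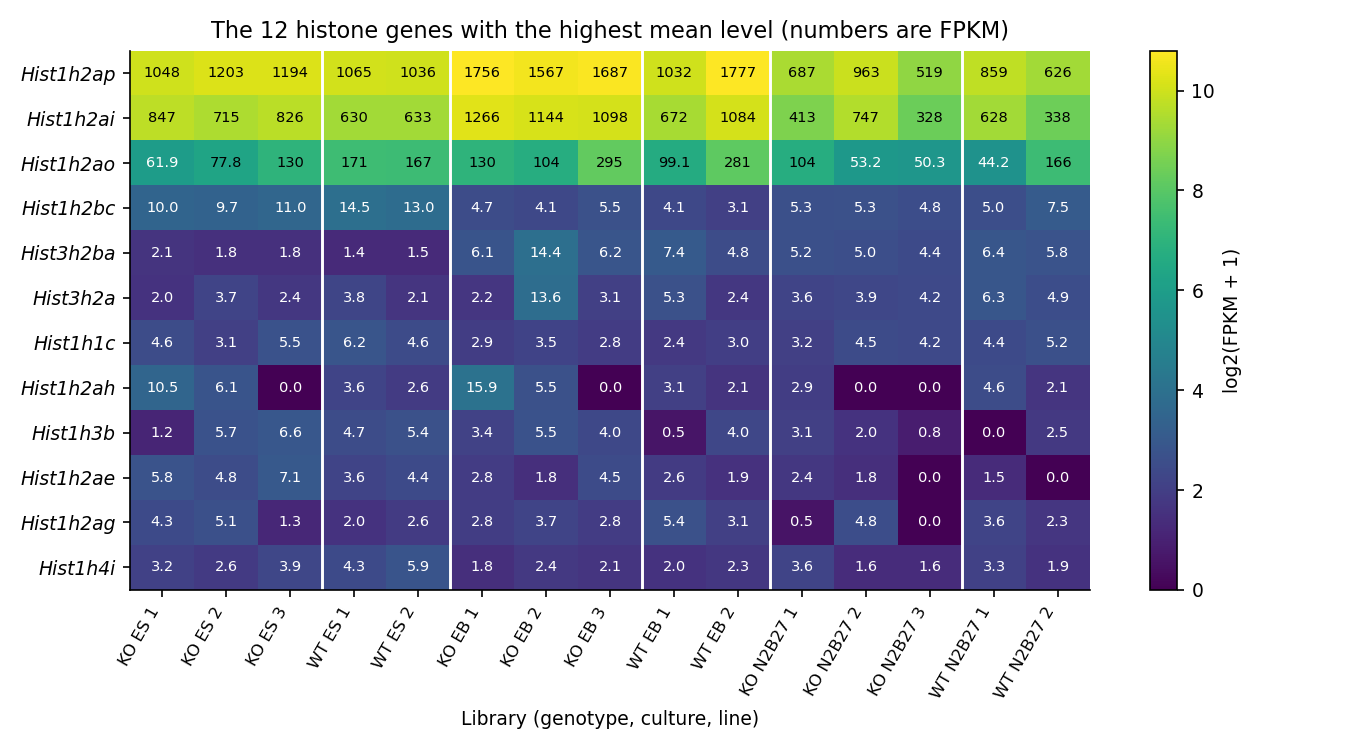
Levels of the 12 histone genes with the highest mean, as log2(FPKM + 1) by colour with the FPKM printed in each cell, for the 15 libraries ordered by culture with KO before WT. Below the first 3 rows the levels drop to under 16 FPKM, Hist1h2bc is lower and Hist3h2ba higher in EBs and N2B27 than in ES cells, and rows such as Hist1h2ah hold zeros beside high values within a group.

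To compare the genotypes, limma was run on log2(FPKM + 1) over the 12929 genes with at least 1 FPKM in at least 2 libraries, which kept 43 of the 66 members (2 H1, 15 H2A, 10 H2B, 10 H3 and 6 H4 genes). Adding 1 to each value shrinks the differences of genes with low levels. Adjusted p-values are Benjamini-Hochberg values over all genes tested. The other 23 members did not reach that level and were not tested.

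No tested member passed the test between KO and WT in any culture, which does not show that the levels were equal. The targeted gene, Mettl5, was itself not called in ES cells (log2 difference -1.08) or in N2B27 (-0.82). It was called lower in EBs (-1.42) and over line means (-1.11). The EB call was lost when the groups compared were fitted alone, and the line mean call without a filter on low values. Both calls were also lost without WT line 2. In ES cells limma called 0 of 43 members higher and 0 lower at an adjusted p under 0.05, where 0.0% of all genes were called in either direction, and 3 members (6.98%, against 3.46% of all genes) had an unadjusted p under 0.05. In EBs it again called 0 in each direction, against 0.65% of all genes higher and 1.62% lower, with 5 members (11.6%, against 14.7% of all genes) at an unadjusted p under 0.05. In N2B27 it called 0 in each direction, against 0.0464% higher and 0.0541% lower, with 1 member (2.33%, against 8.85%) at an unadjusted p under 0.05. Over the means of each line across the 3 cultures (5 lines) it called 0 in each direction, against 0.00773% and 0.0464%, with 8 members (18.6%, against 11.6%) at an unadjusted p under 0.05. Leaving out KO line 2 gave 1 call in N2B27, the H2A gene Hist1h2ag (limma adjusted p = 0.0411), which had 0.47, 4.81 and 0 FPKM in KO and 3.58 and 2.3 FPKM in WT, and 1 over line means, the H2A gene Hist1h2ad (adjusted p = 0.0467), both lower in KO. The median KO over WT difference of the members was 0.00 in ES cells, 0.25 in EBs and -0.01 in N2B27, beside 0.00, -0.04 and -0.02 for all genes tested.

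The lines can be compared within each culture by the summed FPKM of all 66 members. In ES cells the sums were 2046, 2085 and 2234 in KO and 1960 and 1917 in WT, so every KO line lay above both WT lines, by a small margin (log2 ratio of the means 0.13). The sum without Hist1h2ap, Hist1h2ai and Hist1h2ao did not share this: it was 89.2, 88.6 and 84.4 FPKM in KO and 93.5 and 81.2 FPKM in WT. In EBs the sums were 3246, 2919 and 3155 in KO and 1879 and 3199 in WT, and the WT lines differed from each other more than the group means did (log2 ratio of the means 0.29, which was 0.73 without WT line 2 and -0.04 without WT line 1). In N2B27 the sums were 1255, 1816 and 942 in KO and 1595 and 1190 in WT, and the genotypes overlapped (log2 ratio -0.06, which ran from -0.34 to 0.17 when 1 library was left out). The sum of the other 63 genes stood apart from this: in N2B27 it was 50.6, 53.0 and 43.7 FPKM in KO and 62.5 and 59.3 FPKM in WT, so that every KO line lay below both WT lines. In EBs that sum was 94.7, 103.8 and 75.2 FPKM in KO and 75.9 and 56.9 FPKM in WT, with a narrow overlap. The summed FPKM of the H2B genes did not overlap between genotypes in any culture and was lower in KO in ES cells and N2B27 and higher in KO in EBs. It was 26.83, 27.54 and 27.55 FPKM in KO and 35.08 and 29.54 FPKM in WT ES cells, 23.1, 29.39 and 22.34 FPKM in KO and 21.47 and 16.56 FPKM in WT EBs, and 16.58, 14.97 and 15.25 FPKM in KO and 19.51 and 18.78 FPKM in WT N2B27. This sum counts both Hist1h2bq and Hist1h2br, whose values are identical. In EBs the H1, H3 and H4 sums were also higher in every KO line. They were 4.83 to 6.4, 18.31 to 25.08 and 8.54 to 9.41 FPKM in KO. In WT they were 4.49 and 4.78, 17.03 and 15.54, and 8.15 and 6.5 FPKM. In the other cultures these sums overlapped. Of all single genes tested, 8.34% split with KO higher in EBs, and 11.3% and 13.2% with KO lower in ES cells and N2B27. For the sum of all 66 members, no line kept one rank across the cultures: KO line 3 had the highest sum of the 5 lines in ES cells and the lowest in N2B27.

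Hist1h2bc, an H2B gene, had an unadjusted p under 0.05 between genotypes in both ES cells and EBs, with opposite signs, and passed the test after adjustment in neither. It had 10.03, 9.65 and 10.99 FPKM in KO and 14.5 and 12.99 FPKM in WT ES cells, with no overlap and a log2 difference of -0.39 ± 0.14 (SE; limma unadjusted p = 0.016, adjusted p = 1). In EBs it had 4.74, 4.11 and 5.48 FPKM in KO and 4.13 and 3.14 FPKM in WT, a log2 difference of 0.32 ± 0.14 (limma unadjusted p = 0.0435, adjusted p = 0.322). The difference between its EB changes in KO and WT was 0.71 ± 0.20 on the log2 scale (limma adjusted p = 0.269), so it did not pass the test. In N2B27 the levels were 5.27, 5.32 and 4.84 FPKM in KO and 5.04 and 7.5 FPKM in WT.

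Some other members differed between genotypes without passing the test, at low levels. Hist2h2ac, an H2A gene, had 1.06, 2.21 and 0.97 FPKM in KO ES cells and was listed at 0 in both WT ES cell libraries (limma adjusted p = 0.852). Hist1h2af, also H2A, had 5.38, 1.86 and 1.77 FPKM in KO EBs and was listed at 0 in both WT EB libraries (limma adjusted p = 0.252). The H2B gene Hist1h2bk had 1.38, 0.38 and 0.54 FPKM in KO N2B27 and 1.84 and 2.6 FPKM in WT N2B27 (-0.90 ± 0.36, adjusted p = 0.466). Over line means the member with the lowest p was Hist1h2ad, an H2A gene (-0.82 ± 0.18, limma adjusted p = 0.137), which was above 0 in 1 of 9 KO libraries and 3 of 6 WT libraries. The share of stretches also found in another gene's transcript was 38.6% for Hist2h2ac, 79.7% for Hist1h2af, 74.2% for Hist1h2bk and 67.1% for Hist1h2ad. Their values, the zeros included, thus also depend on how fragments were divided between copies.

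All KO libraries lay above all WT libraries of a culture for 6 of 43 members in ES cells, 4 in EBs and 3 in N2B27, against 12.7%, 8.34% and 8.88% of all genes tested. All KO libraries lay below for 4, 2 and 4 members, against 11.3%, 18.1% and 13.2% of all genes. Hist1h2ai was above in ES cells and in EBs, and Hist1h3g, an H3 gene, below in both. Its levels were 1.17, 0.72 and 1.36 FPKM in KO and 2.39 and 1.44 FPKM in WT ES cells, and 0.27, 1.23 and 0.56 FPKM in KO and 1.74 and 1.25 FPKM in WT EBs. Hist1h2ao, opposite to Hist1h2ai, was below in ES cells, with 61.87, 77.78 and 130 FPKM in KO and 171.42 and 166.59 FPKM in WT. Most stretches of both genes also occur in other genes' transcripts. Whether the division of fragments between copies bears on either split was not tested.

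Between cultures some members passed the test in both genotypes. In EBs over ES cells, limma called 5 of 43 members higher and 3 lower in KO, where 36.2% of all genes were called higher and 28.5% lower, and 3 higher and 6 lower in WT, where 35.8% and 23.6% of all genes were. In each direction a smaller share of the members was called than of all genes. Libraries of 1 group disagreed more on the members (median within-group SD 0.427, against 0.129 over all genes tested). A call on a member thus tends to take a larger change, and the shares are not a like comparison. With median-ratio scaling, which brings the median change of all genes to 0.00, 4 members were called higher and 5 lower in KO and 2 and 6 in WT, and with every library scaled to the same sum, which brought 54 members past the filter, 5 and 7 of 54 in KO and 2 and 7 of 54 in WT. Without KO ES cell line 2 or 3 or KO EB line 2, 3 members were called higher in KO, without KO ES cell line 1 there were 5 called lower in KO, and without WT ES cell line 1 there was 1 called higher in WT. Of the members called higher, 2 were shared, Hist3h2ba and Hist1h3c (40% of the KO calls and 66.7% of the WT calls), and of those called lower, 2 were shared, Hist1h2bc and Hist1h2be (66.7% and 33.3%). The median change of the members was -0.01 in KO and -0.02 in WT, beside 0.06 and 0.11 for all genes tested.

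Hist3h2ba rose in EBs to 6.06, 14.37 and 6.2 FPKM in KO lines, against 2.06, 1.81 and 1.83 FPKM in their ES cells. In WT it reached 7.36 and 4.77 FPKM in EBs, against 1.44 and 1.47 FPKM in ES cells. Every EB library was above every ES cell library, and the log2 change was 1.67 ± 0.23 in KO (limma adjusted p = 1.93e-05) and 1.50 ± 0.28 in WT (adjusted p = 0.000371). Hist1h3c, an H3 gene, rose too, with 6.23, 6.21 and 3.82 FPKM in KO EBs against 3.21, 2.51 and 0.8 FPKM in KO ES cells, and with 4.91 and 2.58 FPKM in WT EBs against 1.62 and 1.49 FPKM in WT ES cells. Its log2 change was 1.08 ± 0.28 in KO (limma adjusted p = 0.00331) and 0.85 ± 0.34 in WT (adjusted p = 0.0426). The WT call on Hist1h3c was lost with median-ratio scaling, with scaling to a common sum, with a pseudocount of 0.1, without a filter and without 3 of the 4 WT libraries (adjusted p up to 0.318).

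Hist1h2bc fell in EBs in each line. It had 4.74, 4.11 and 5.48 FPKM in KO EBs against 10.03, 9.65 and 10.99 FPKM in KO ES cells (log2 change -0.96 ± 0.13, limma adjusted p = 1.52e-05), and 4.13 and 3.14 FPKM in WT EBs against 14.5 and 12.99 FPKM in WT ES cells (-1.68 ± 0.16, adjusted p = 6.96e-07). Hist1h2be, another H2B gene, stood lower and fell as well, with 1.04, 1.16 and 0 FPKM in KO EBs against 0.93, 3.04 and 1.62 FPKM in KO ES cells (-0.74 ± 0.29, limma adjusted p = 0.0347), and 0.31 and 0.59 FPKM in WT EBs against 1.89 and 2.24 FPKM in WT ES cells (-1.08 ± 0.35, adjusted p = 0.0154). In KO its groups overlapped. The KO call on Hist1h2be was lost under 6 of 12 alternatives (adjusted p up to 0.199), among them without KO EB line 3 and without KO ES cell line 2 or 3, and the WT call under 3 of 10 (up to 0.0882), among them without WT EB line 1 and without WT ES cell line 2.

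Among the members called in 1 genotype, Hist1h2ap rose in KO EBs (log2 change 0.54 ± 0.21, limma adjusted p = 0.0344), a call lost under 8 of 13 alternatives, the scalings among them. Its change in WT was 0.37 ± 0.26 (adjusted p = 0.234). Hist2h3b, an H3 gene, and the linker histone gene Hist1h1e also rose in KO EBs, by 1.21 ± 0.42 and 0.51 ± 0.20 on the log2 scale, and Hist2h2ac fell by 0.95 ± 0.29. The call on Hist1h1e was lost under 6 of 10 alternatives (limma adjusted p up to 0.142), among them without KO ES cell line 1 or 3, and that on Hist2h3b under 4 of 12 (up to 0.0973), among them without KO EB line 2 and without KO ES cell line 2 or 3. That on Hist2h2ac was lost without KO ES cell line 2 (0.0585). In WT EBs the H3 gene Hist1h3h rose by 1.78 ± 0.64, while Hist1h2bk (-1.07 ± 0.40), Hist1h4i (-0.93 ± 0.26), the H2B gene Hist1h2bp (-0.93 ± 0.32) and Hist1h1c (-0.77 ± 0.20) fell. Each of these 5 calls was lost without at least 1 WT library: Hist1h3h without either EB line or ES cell line 1, Hist1h2bk without EB line 2 or either ES cell line, Hist1h2bp without either EB line, Hist1h4i without ES cell line 2 and Hist1h1c without ES cell line 1 (adjusted p up to 0.214). By class, 4 of the 10 tested H2B genes fell in WT EBs and 2 in KO EBs, and 2 of the 10 tested H3 genes rose in each genotype.

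In N2B27 over ES cells most calls were of members that fell. Limma called 2 of 43 members higher and 15 lower in KO, where 43.5% of all genes were called higher and 33.2% lower, and 2 higher and 10 lower in WT, where 41.5% and 29.2% of all genes were. The share of members called lower, 15 of 43 and 10 of 43, was near that of all genes, while few members were called higher. The median change of the members was -0.51 in KO and -0.42 in WT, beside 0.11 and 0.12 for all genes tested, and 9 and 12 of 43 members had a positive change. Without KO N2B27 line 3, 6 members were called lower in KO, and without WT ES cell line 1 or without WT N2B27 line 2, 6 were in WT. The count called higher was 1 in KO without ES cell line 1 or 2 or without N2B27 line 1 or 3, and 1 in WT without N2B27 line 2.

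Of the members called lower, 6 were shared between genotypes, 40% of the KO calls and 60% of the WT calls: Hist1h2ae, Hist1h2bc, Hist1h2be, Hist1h2bq, Hist1h2br and Hist1h4d, with Hist1h2bq and Hist1h2br carrying identical values. Both members called higher, Hist3h2ba and Hist2h3c2, were the same in KO and WT. By class, 5 of 15 tested H2A, 6 of 10 H2B, 2 of 10 H3 and 2 of 6 H4 genes were called lower in KO, and 1, 4, 2 and 3 in WT. Neither of the tested H1 genes was called. The KO call on Hist1h2be was lost under 7 of 12 alternatives (limma adjusted p up to 0.186), among them without KO ES cell line 2 or 3 and without KO N2B27 line 2 or 3, and the WT call without WT N2B27 line 2 (0.0520). The KO calls on Hist1h2bq and Hist1h2br were lost under 8 of 12 (up to 0.0909), among them without any 1 KO ES cell line and without KO N2B27 line 1 or 3, and the WT calls without WT ES cell line 1 (0.0863). The WT call on Hist1h4d was lost under 4 of 10 (up to 0.363), among them without either WT ES cell line and without WT N2B27 line 1.

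Hist1h2ae, an H2A gene, had 2.35, 1.76 and 0 FPKM in KO N2B27 against 5.81, 4.77 and 7.07 FPKM in KO ES cells, and 1.51 and 0 FPKM in WT N2B27 against 3.58 and 4.4 FPKM in WT ES cells. The groups did not overlap in either genotype, and the log2 change was -1.70 ± 0.40 in KO (limma adjusted p = 0.00151) and -1.65 ± 0.50 in WT (adjusted p = 0.00829, and 0.129 without WT N2B27 line 2). Hist1h2bc fell by 0.87 ± 0.13 in KO (limma adjusted p = 2.32e-05) and by 1.04 ± 0.16 in WT (adjusted p = 3.69e-05). Hist1h4d, an H4 gene, had 0.55, 0.73 and 0.77 FPKM in KO N2B27 against 1.22, 1.96 and 1.25 FPKM in KO ES cells (-0.55 ± 0.14, limma adjusted p = 0.00274).

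Hist3h2ba rose to 5.2, 5.03 and 4.44 FPKM in KO N2B27, against 2.06, 1.81 and 1.83 FPKM in KO ES cells, and to 6.41 and 5.81 FPKM in WT N2B27, against 1.44 and 1.47 FPKM in WT ES cells. The log2 change was 1.02 ± 0.23 in KO (limma adjusted p = 0.000928) and 1.53 ± 0.28 in WT (adjusted p = 0.000202), and no library of one culture reached those of the other. The H3 gene Hist2h3c2 had 1.13, 0.32 and 0.78 FPKM in KO N2B27 against 0, 0 and 0.56 FPKM in KO ES cells (0.56 ± 0.21, limma adjusted p = 0.0278, and up to 0.106 without KO ES cell line 1 or 2 or KO N2B27 line 3), and 0.72 and 1.25 FPKM in WT N2B27, where WT ES cells were listed at 0 in both libraries (adjusted p = 0.00411). A gene named Gm20634 in GENCODE M21 shares 63.5% of the stretches of Hist2h3c2, 79.7% of those of Hist2h3b and 28.9% of those of Hist2h2ac. If the annotation behind the deposited values held Gm20634, which is not known, shared fragments could be divided only by estimation.

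The 2 most abundant members fell in N2B27 in KO, Hist1h2ap by 0.71 ± 0.21 (limma adjusted p = 0.00658) and Hist1h2ai by 0.77 ± 0.27 (adjusted p = 0.0175) on the log2 scale. In WT the changes were -0.52 ± 0.26 (adjusted p = 0.0841) and -0.45 ± 0.33 (adjusted p = 0.231). The KO call on Hist1h2ai was lost without KO ES cell line 1 and without KO N2B27 line 1 or 3. In KO N2B27, Hist1h2ab (-1.54 ± 0.55), Hist1h2bk (-1.19 ± 0.32), the H3 gene Hist1h3e (-0.90 ± 0.32) and Hist2h2ac (-0.89 ± 0.29) fell as well. The call on Hist1h2ab was lost without KO ES cell line 2 and without KO N2B27 line 2 or 3, that on Hist1h3e without KO ES cell line 3 and without KO N2B27 line 3, and that on Hist2h2ac without KO ES cell line 2 and without KO N2B27 line 1 or 3 (limma adjusted p up to 0.123). Hist1h3c, which had risen in EBs, fell in KO N2B27 by 0.82 ± 0.28 (limma adjusted p = 0.0145, and up to 0.0839 without KO ES cell line 1 or 2). In WT N2B27, Hist1h3b fell by 1.70 ± 0.65, a call lost without a filter and without 3 of the 4 WT libraries.

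**Figure D3:**
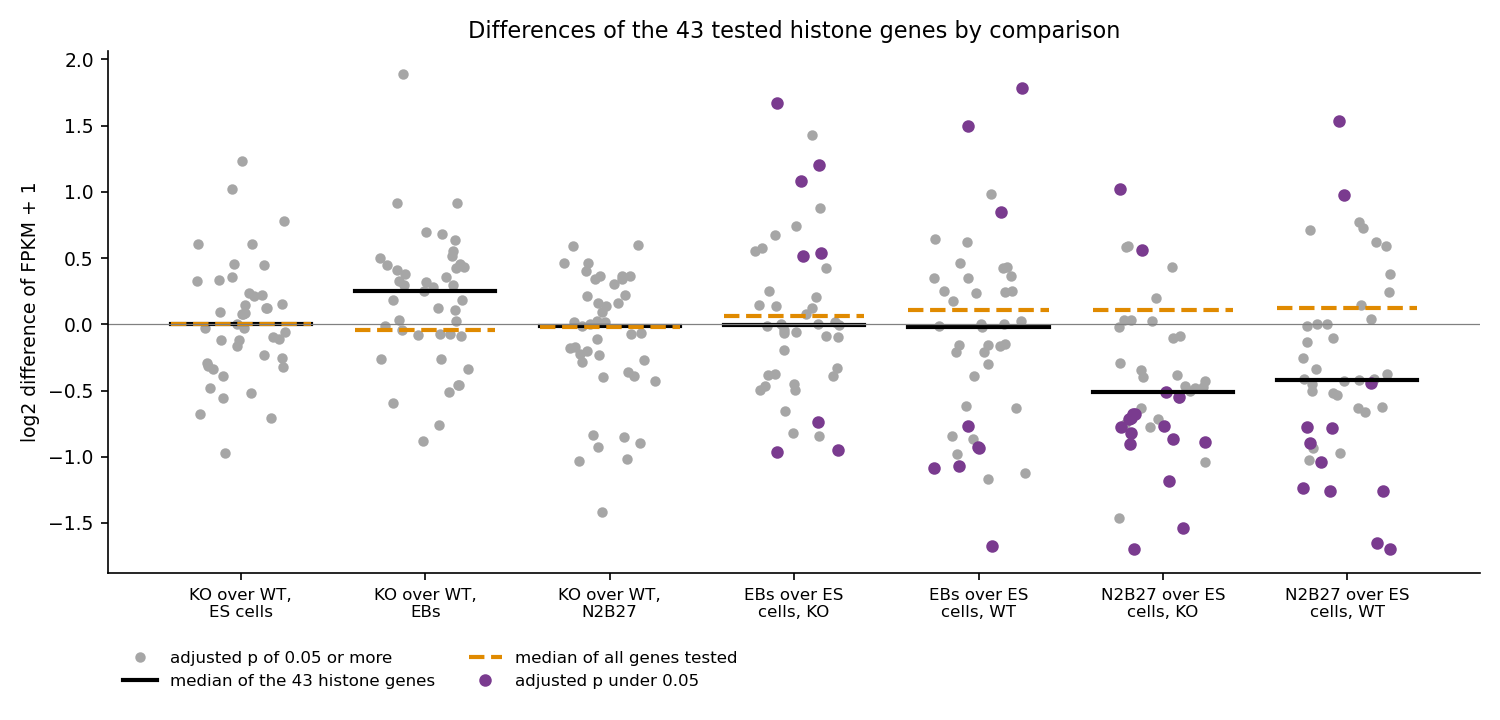
Differences in log2(FPKM + 1) of the 43 tested histone genes (points, filled dark where the limma adjusted p was under 0.05) for KO over WT in each culture and for EBs and N2B27 over ES cells in each genotype, with medians of the members (solid) and of all genes tested (dashed). No point is dark in the KO over WT columns, and the member medians lie at -0.51 and -0.42 in N2B27 over ES cells, where all genes lie at 0.11 and 0.12.

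**Figure D4:**
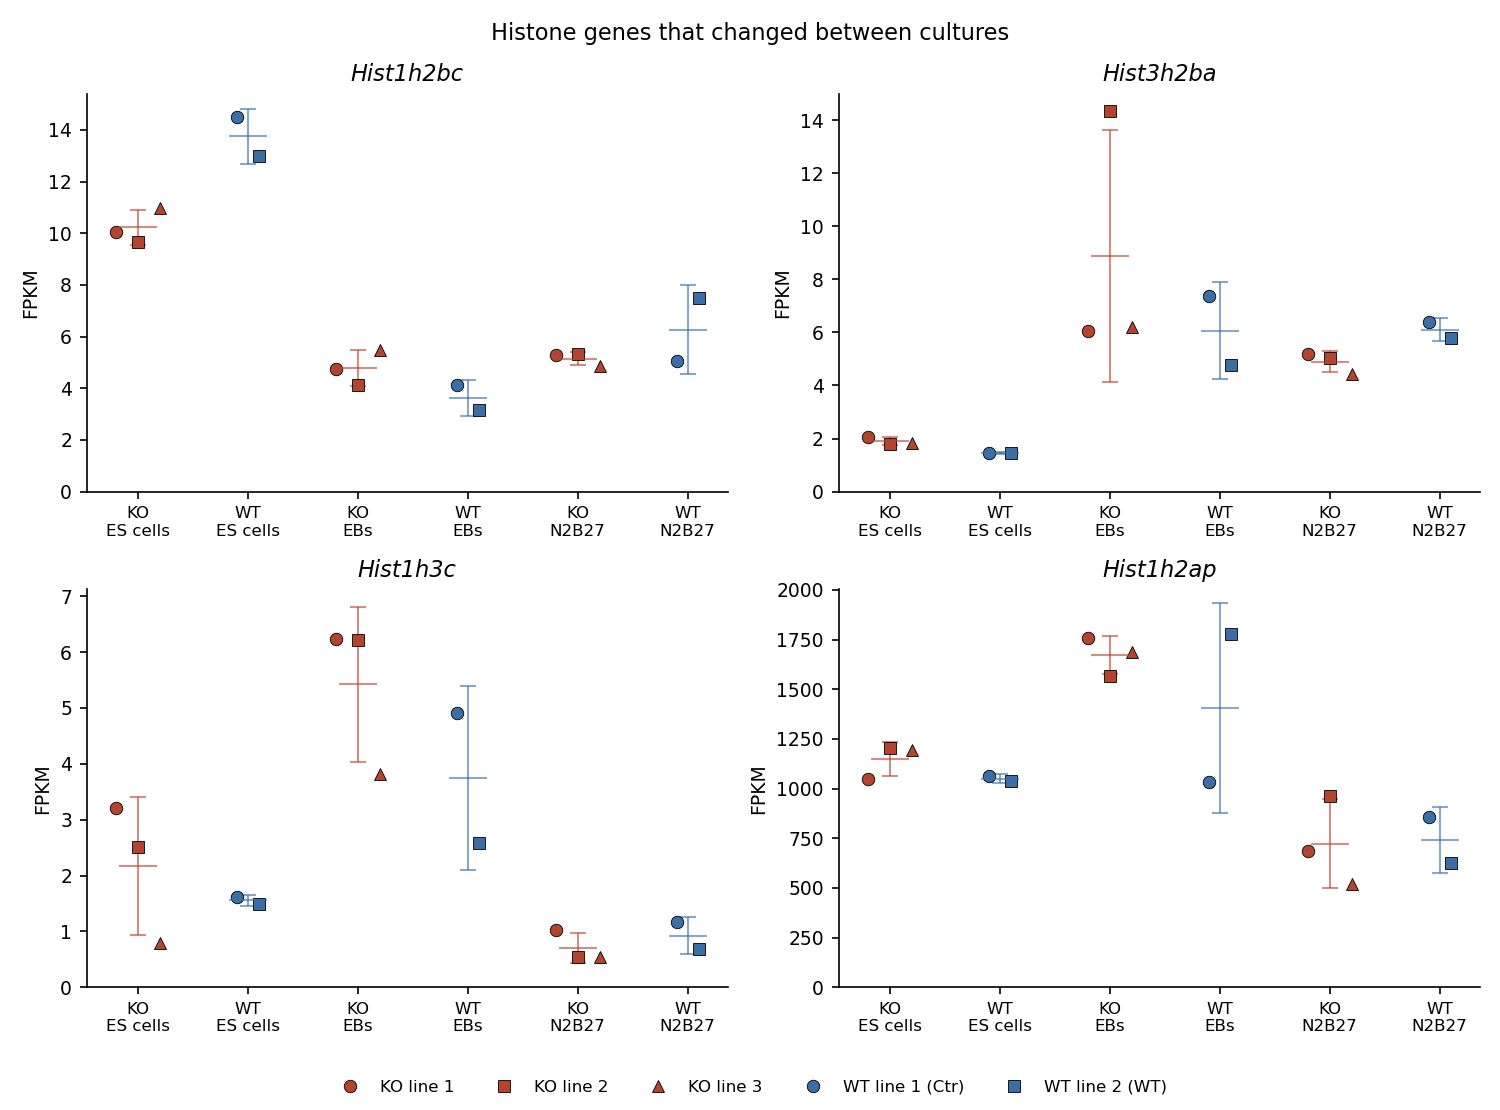
FPKM (y axes, from 0) of Hist1h2bc, Hist3h2ba, Hist1h3c and Hist1h2ap in every library of the 6 groups, with the mean and SD of each group as bars. Hist1h2bc is highest in ES cells and Hist3h2ba lowest there in both genotypes, Hist1h3c is highest in EBs, and the WT EB libraries of Hist1h2ap lie at 1032 and 1777 FPKM.

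Whether the KO lines changed with culture in another way than the WT lines was tested as the difference between their changes. Limma called 0 of 43 members more positive and 0 more negative in KO for EBs over ES cells, against 0.0155% and 0.139% of all genes, with 5 members (11.6%, against 7.66% of all genes) at an unadjusted p under 0.05. For N2B27 over ES cells it called 0 in each direction, against 0.0% and 0.00773% of all genes, and 0 members had an unadjusted p under 0.05, against 4.8% of all genes. With the line as a block, limma again called 0 members in either comparison, and 7 (16.3%, against 7.7%) and 3 (6.98%, against 4.86%) had an unadjusted p under 0.05. The calls made in only 1 genotype above are thus not shown to differ between genotypes.

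Libraries of 1 group disagreed on many members. Their median within-group SD was 0.427 on the log2(FPKM + 1) scale, against 0.129 over all genes tested. For the 40 tested members other than the 3 most abundant it was 0.444, against 0.147 for the 5414 genes tested with a mean in the same span of 0.257 to 7.18 FPKM. The most variable, all H2A genes, were Hist1h2ah (SD 1.44), Hist1h2af (1.01), Hist1h2an (0.968), Hist1h2ad (0.885) and Hist1h2ab (0.829). In that order, 90.7%, 79.7%, 85.8%, 67.1% and 58.0% of their stretches also occur in another gene's transcript, against 30.1% for Hist1h2bc. Whether the division of fragments between copies bears on the spread was not tested. Hist1h2ah had 15.86, 5.47 and 0 FPKM in KO EBs and 3.08 and 2.07 FPKM in WT EBs, and 10.54, 6.08 and 0 FPKM in KO ES cells and 3.6 and 2.63 FPKM in WT ES cells. Hist1h2an was at 5.3 FPKM in the EBs of KO line 3 and listed at 0 in those of KO lines 1 and 2. The least variable tested member was Hist1h2bc (0.171), which with Hist1h2be fell, while Hist3h2ba rose, in all 4 culture changes.

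**Figure D5:**
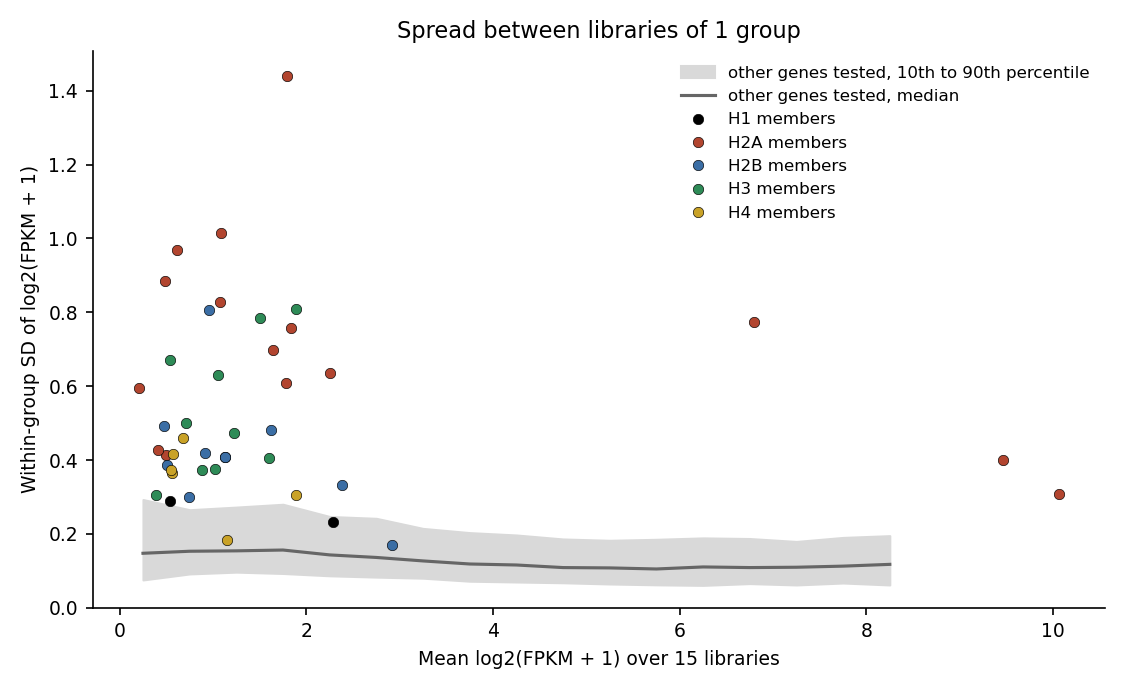
Within-group SD of log2(FPKM + 1) (y axis) against the mean of log2(FPKM + 1) over 15 libraries (x axis) for the 43 tested histone genes, coloured by class, over the median and the 10th to 90th percentile of other genes tested. Most histone genes lie above the grey band, Hist1h2ah highest at 1.44 and Hist1h2bc within it at 0.171.

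Factors of histone transcription and 3′ end processing passed no test between genotypes. Of 24 such genes, limma called 0 in each KO against WT comparison, with 1 at an unadjusted p under 0.05 in EBs and 0 in ES cells and N2B27. Slbp, which encodes the stem-loop binding protein, had 56.19, 47 and 52.16 FPKM in KO and 48.32 and 67.41 FPKM in WT EBs. With culture, 5 of the 24 rose and 12 fell in KO N2B27 over ES cells, and 5 rose and 10 fell in WT. Zfp473, a component of the U7 processing complex, fell by 1.62 ± 0.09 in KO and by 1.69 ± 0.11 in WT N2B27 (limma adjusted p = 4.33e-10 and 4.01e-09). Npat and Casp8ap2, needed for transcription of the histone clusters, fell by 0.24 ± 0.09 and 0.42 ± 0.13 in KO and by 0.36 ± 0.10 and 0.41 ± 0.16 in WT N2B27, while Lsm11 of the U7 particle rose by 0.51 ± 0.12 in KO and by 0.51 ± 0.14 in WT.

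Genes of DNA replication were measured beside the members because histone RNA is made in S phase. Of 49 S phase genes, 42 fell and 0 rose in KO N2B27 over ES cells, and 34 fell and 1 rose in WT, with median changes of -0.66 and -0.60. Their summed FPKM was 2124 to 2764 in KO N2B27 against 3835 to 3916 in KO ES cells, and 2831 and 2352 in WT N2B27 against 3878 and 4001 in WT ES cells. In EBs 29 fell and 2 rose in KO and 22 fell and 1 rose in WT (medians -0.33 and -0.29), while the summed member FPKM was higher in EBs than in ES cells in 4 of the 5 lines. That sum is nearly all Hist1h2ap, Hist1h2ai and Hist1h2ao. Without these genes its log2 change in EBs was 0.086, 0.23 and -0.17 in the KO lines and -0.30 and -0.51 in the WT lines. The part of replication in the changes of the members was not tested. Of 21 histone chaperone genes, 11 fell and 3 rose in KO and 13 fell and 3 rose in WT N2B27. Between KO and WT limma called 0 genes of either list in any culture, with unadjusted p under 0.05 for 1 S phase gene in ES cells, 0 in EBs and 1 in N2B27, and for 0, 1 and 1 chaperone genes.

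Replication-independent variants are histones most of whose messages are polyadenylated and made outside S phase as well. Whether this holds for each gene listed here was not examined. H3f3a and H3f3b, which both encode H3.3, rose in N2B27 by 0.52 ± 0.09 and 0.34 ± 0.07 in KO and by 0.49 ± 0.12 and 0.47 ± 0.09 in WT, and H2afx, encoding H2A.X, fell by 0.91 ± 0.12 in KO and by 0.90 ± 0.15 in WT. Of the 11 tested variants, 5 rose and 3 fell in KO N2B27 and 6 rose and 2 fell in WT. Between genotypes limma called 1, H2afy2, which encodes a macroH2A, lower in KO EBs (25.55, 26.09 and 20.12 FPKM in KO against 30.83 and 33.85 FPKM in WT; log2 difference -0.43 ± 0.10, adjusted p = 0.0492). H2afz had 415.41 to 740.47 FPKM over the 15 libraries and so stood under Hist1h2ap in every ES cell library.

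Markers of fibroblasts and feeder cells moved with some of these comparisons. Their summed FPKM over 8 genes was 12.6 to 14.4 in KO and 9.95 and 9.1 in WT ES cells, nearly all from Thy1, with Lum, Dcn and Postn listed at 0 in every ES cell library. In EBs it was 14.6 to 22.1 in KO and 22.0 and 24.4 in WT, and limma called Col1a1 and Pdgfra lower in KO. The germ layer markers Gata4, Hand1 and Kdr, 3 of the 7 in their list, were also called lower in KO EBs, and the list summed to 61.5 to 120 in KO and 152 and 125 in WT. The part of these cell types in the levels of the members was not tested.

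H2A and H2B genes often stand head to head and start from a shared stretch of DNA, yet the levels of the partners differed. Pairs were sought only among the 61 members with a promoter in the RefSeq annotation, which gave the strand. In 10 such pairs the starts lay 163 to 280 bases apart. Hist1h2ap at 1135 FPKM faced Hist1h2br at 1.33 FPKM over 267 bases, Hist1h2ai at 758 FPKM faced Hist1h2bl at 0.739 FPKM over 228 bases, and Hist1h2ao at 129 FPKM faced Hist1h2bq at 1.33 FPKM over 167 bases. In the other 7 pairs the ratio was 1.61 to 6.09, with the H2A gene higher in all but the testis pair Hist1h2ba and Hist1h2aa. The H2B genes Hist1h2bc and Hist2h2be had no strand there and were left out. Hist1h2bc, at 7.18 FPKM, lies beside the H2A gene Hist1h2ac at 0.0507 FPKM, so there the H2B gene was the higher. Hist2h2be, at 0.484 FPKM, lies beside the H2A gene Hist2h2ac at 0.435 FPKM. These are levels per length of what the oligo(dT) beads retained.

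The stretch between Hist1h2ap and Hist1h2br is shown as the RefSeq promoter of Hist1h2ap, 250 bases before to 50 after its start on GRCm38.p6, with each CCAAT, on either strand, in capitals.
Hist1h2ap, chr13:21833426-21833725, minus strand: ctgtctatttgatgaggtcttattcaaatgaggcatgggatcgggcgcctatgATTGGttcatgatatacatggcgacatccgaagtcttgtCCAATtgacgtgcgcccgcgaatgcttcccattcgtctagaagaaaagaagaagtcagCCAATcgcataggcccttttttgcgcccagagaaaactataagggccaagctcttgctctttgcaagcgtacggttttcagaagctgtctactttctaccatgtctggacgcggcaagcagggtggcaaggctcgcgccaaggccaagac
Among the 61 members with a promoter in that table, CCAAT on either strand occurred in 85.3%, against 37.9% of all 27025 promoters of the same length. It was in the promoter of every H1, H2A, H2B and H3 member, and in 3 of 12 H4 members. TATAAA occurred in 57.4% of members and 14.2% of all promoters, and the octamer ATTTGCAT in 21.3% and 1.75%, in 7 of 18 H2A and 6 of 16 H2B members and in no H1, H3 or H4 member. A match is a description of these letters in these windows, and TATAAA and ATTTGCAT are not in the window of Hist1h2ap.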

How the data were processed

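Polyadenylated RNA was profiled in 15 libraries, grouped by genotype and culture from their titles. The authors deposited 1 table of FPKM values, with 2 decimals, per the file headers. The submitters' processing notes name Bowtie2, RSEM and the build mm10, without versions or roles. The annotation is not given in the sources used here. Members were taken by gene name, and all 66 matched RefSeq (GRCm38.p6, the assembly of mm10) by Entrez ID. The members, the gene lists and the rule for named genes (highest means, largest called changes, largest spread) were chosen with earlier results of these data known.

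Tests used log2(FPKM + 1) and limma 3.58.1 (R 4.3.3) with its trend option, on the 12929 genes that reached 1 FPKM in 2 or more libraries. One fit held the 6 group means (9 residual degrees of freedom), and a separate fit held the line means. Together they gave 10 contrasts, with Benjamini-Hochberg adjusted p-values called under 0.05. These were KO over WT in each culture and over line means (5 lines, 3 residual degrees of freedom), each culture over ES cells in each genotype, and both differences between those changes. The fit of the group means was tested on simulated data. Sums over members are descriptions without a test. The same named lines recur in each culture, so changes of culture were also fitted with the line as a block. Deviations from group means correlated between the same KO line in different cultures with r = -0.178 to 0.265 over all genes tested, against -0.272 to 0.236 between different KO lines. Over the tested members the same KO line gave r = -0.116 to 0.663 (0.348, 0.321 and 0.663 between EBs and ES cells) and different KO lines -0.465 to 0.246. With 2 WT lines such correlations mirror each other (-0.0294 to 0.0610 for the same line). Libraries of 1 group correlated with r = 0.986 to 0.997 across genes.

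Depth was estimated as the total, of those tried, at which the largest share of low values of single-exon genes came out as whole fragments within 0.1. That share was 47.1% to 67.5% of 69 to 103 values, against a median of 17.5% to 20.0% over all totals tried. Alternatives were a pseudocount of 0.1, no filter, a minimum of 5 FPKM, median-ratio and common-sum (TPM) scaling, fits of the groups compared alone, the block and leaving out each library. The sum without the 3 highest members was added after the data were seen. Sequences came from GENCODE M21 transcripts and RefSeq promoters, and Python 3.11.15 was used for them.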

Additional observations from a re-analysis of the deposited data

Results flagged for a closer look

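Hist1h2bl, an H2B gene, drew attention because its 3 KO lines moved one way and its 2 WT lines the other between ES cells and EBs. It had 0.52, 0.73 and 0.58 FPKM in KO EBs against 0.56, 1.76 and 1.14 FPKM in KO ES cells, and 0.95 and 1.69 FPKM in WT EBs against 0.3 and 1.12 FPKM in WT ES cells. KO minus WT, the changes differed by -0.85 ± 0.33 (SE) on the log2(FPKM + 1) scale, which did not pass the limma test (adjusted p = 0.512). Of the stretches of Hist1h2bl, 82.8% also occur in another gene's transcript. No other tested member that is named here, and neither of the sums over members, showed such a split in EBs or in N2B27. Groups of 2 and 3 libraries are too small for a check on single libraries that stand apart.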

How the results depend on the processing

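Of 46 changes of members called between cultures, 14 were kept under every alternative that tested them, 32 were lost under at least 1 and 0 turned direction. Those kept included all 4 calls on Hist1h2bc and all 4 on Hist3h2ba. The pairing by line (replicate block) kept all 46 calls and gave 5 members higher and 4 lower in KO EBs over ES cells, 4 and 7 in WT EBs, 2 and 18 in KO N2B27 and 2 and 11 in WT N2B27. KO over WT within a culture compares different lines, so no block applies there. With a minimum of 5 FPKM, which tests fewer members, 3 were higher and 1 lower in KO EBs, 2 lower in WT EBs, 1 higher and 6 lower in KO N2B27, and 1 higher and 3 lower in WT N2B27. For KO EBs, a pseudocount of 0.1 gave 3 higher, median-ratio scaling 5 lower and TPM scaling 7 lower. For WT EBs, 1 was higher without a filter and 10 were lower when the groups compared were fitted alone, which gave 4 higher for WT N2B27. The cause of these shifts was not tested.

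Leaving out 1 library at a time gave 3 to 5 higher and 2 to 5 lower in KO EBs, 1 to 3 higher in WT EBs, 1 to 2 higher and 6 to 14 lower in KO N2B27, 1 to 2 higher and 6 to 8 lower in WT N2B27, and 0 to 1 lower in KO than WT in N2B27 and over line means. The log2 ratio of the summed FPKM then ran from -0.042 to 0.73 for KO over WT in EBs, from -0.045 to 0.72 for EBs over ES cells in WT and from -0.70 to -0.28 for N2B27 over ES cells in WT. For EBs over ES cells in KO it was 0.55 as deposited, 0.48 with median-ratio and 0.44 with TPM scaling. Without Hist1h2ap, Hist1h2ai and Hist1h2ao it was 0.062 there, -0.40 for WT EBs (0.39 with them) and 0.00096 for KO over WT in ES cells. Where 1 library was left in a group, its spread was assumed to be that of the other groups. Depth limits the 40 members with means under 1 FPKM.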
